A study of Mus musculus with 8 samples.

Results

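*Gdpd3*, its paralogues *Gdpd1* and *Gdpd5*, and its chromosome 7 neighbours *Mapk3*, *Ypel3*, *Ppp4c* and *Coro1a* were followed in splenic CD8+ T cells, the cytotoxic lineage of T lymphocytes. The 7 genes were taken by symbol from count tables of 48321 symbols, and all 7 were among the 12597 genes with enough reads to test. *Gdpd3* was selected on its measured CPM, because its level differed between the WT libraries and the KO-labelled libraries on both days. Its own values are therefore given as a description without a test.

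The 8 libraries came from C57BL/6 mice and formed 4 groups of 2, WT and KO before culture (day 0) and after in vitro culture (day 5). The knockout is described as floxed *Satb1* with *E8I-cre*, a transgene that expresses the recombinase in mature cells of the CD8 lineage, and *Satb1* encodes a chromatin organiser of T cells. The labels do not state whether the WT mice carried the floxed alleles or the cre transgene, nor whether the 2 libraries of a group came from separate animals, so p-values measure only the spread between these samples. Age and the agents in the culture were not given in the sources used here. *Satb1* itself averaged 94.7 CPM (counts per 1000000 of a scaled library total) in WT and 134.5 CPM in the KO libraries at day 0, against 106.2 and 59.4 CPM at day 5. At day 0 the gene-level count thus ran against the label, so these samples are called the KO-labelled libraries (the libraries labelled KO), and every genotype direction below rests on that label. Totals ranged from 4170126 to 11117971 counts. The summed CPM of 6 CD8 T cell markers ran from 8458 to 12660 over the libraries, against 0.226 to 2.998 for 2 CD4 T cell markers, 67.4 to 166 for 5 B cell markers, 4.06 to 19.0 for 6 myeloid markers, 0 to 1.43 for 2 NK cell markers and 0 to 0.905 for 4 erythroid markers. Each of these markers had a count in at least 1 library. In bulk samples such as these, fewer cells of a type and less RNA per cell cannot be told apart.

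Glycerophosphodiester phosphodiesterases cleave the glycerophosphodiester bond of lipid head groups. GDPD1 and GDPD3 act as lysophospholipase D enzymes, which release lysophosphatidic acid, a signalling lipid read by G protein-coupled receptors, and they also act in the formation of N-acylethanolamines. GDPD5 instead has a multi-pass membrane form that cleaves glycerophosphocholine and glycosylphosphatidylinositol anchors. Among the neighbours, *Mapk3* encodes the ERK1 kinase that carries signals from the T-cell receptor, *Ppp4c* the catalytic subunit of protein phosphatase 4, *Coro1a* an actin regulator abundant in leukocytes, and *Ypel3* a small protein of the Yippee-like family.

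*Gdpd3* lies on chromosome 7 at 126766334 to 126775649 on the plus strand (GRCm38, GENCODE M21). *Mapk3* (126759601 to 126765819, plus strand) ends 515 bases before it, and *Ypel3* (126776955 to 126780514, plus strand) starts 1306 bases after it. On the minus strand, the processed transcript *Gm9967* (126768082 to 126776818) runs back across *Gdpd3* and shares 298 bases of exon with it, or 13.6% of the *Gdpd3* exon length. *Ppp4c* (126785866 to 126792496, minus strand) lies 10.2 kb downstream and *Coro1a* (126699773 to 126707787, minus strand) 58.5 kb upstream. *Gdpd5* lies far off on the same chromosome at 99381414 to 99461877, and *Gdpd1* on chromosome 11 at 87033867 to 87074062.

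A pair of RefSeq stretches (GRCm38.p6, 5′ to 3′ on the plus strand) is shown because they hold the bases just before *Gdpd3* and those between *Gm9967*, which like *Gdpd3* had few reads in the KO-labelled libraries, and *Ypel3*, which was not called between genotypes. The first, chr7:126766164-126766333, comprises the 170 bases just before the first *Gdpd3* exon. The second, chr7:126776819-126776954, comprises all 136 bases between the start of *Gm9967* and that of *Ypel3*, which leave it in opposite directions. Capitals mark CpG dinucleotides.
Gdpd3: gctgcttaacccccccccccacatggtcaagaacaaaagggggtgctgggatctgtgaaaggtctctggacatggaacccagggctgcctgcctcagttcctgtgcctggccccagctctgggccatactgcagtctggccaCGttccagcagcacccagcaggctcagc
Ypel3 and Gm9967: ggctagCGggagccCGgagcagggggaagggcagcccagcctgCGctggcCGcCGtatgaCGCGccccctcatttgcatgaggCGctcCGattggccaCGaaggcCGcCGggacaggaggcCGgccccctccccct
The *Gdpd3* stretch held 1 CpG with 62.4% GC, and the *Ypel3* and *Gm9967* stretch held 13 with 74.3% GC. Over the standard window of 300 bases around the start (250 before, 50 after), *Gdpd3* had 7 CpG, the median of the 32851 windows in the table, and *Ypel3* had 28, more than 85.8% of windows. The table matched 5 of the 7 genes, all but *Mapk3* and *Gdpd5*. *Gdpd1* had 25 CpG in its window, *Ppp4c* 22 and 36 in its 2 windows, and *Coro1a* 19 and 10. The letters TGTGGT, the core bound by RUNX factors, were searched on both strands and occurred in 16.8% of all windows. They were present in the window of *Gdpd1* and in none of the other 4 genes.

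At day 0, *Gdpd3* had 84.4 and 122 CPM in the WT libraries (472 and 540 counts) and 0.515 and 1.47 CPM in the KO-labelled libraries (6 and 8 counts). At day 5 it had 23.8 and 51.6 CPM in WT (135 and 214 counts) and 0.184 and 1.14 CPM in the KO-labelled libraries (1 and 6 counts). Every WT library was thus far above every library labelled KO, and the lowest WT library was a cultured one. The means were 103 ± 26.6 CPM (SD, n = 2) against 0.991 ± 0.674 CPM at day 0 and 37.7 ± 19.6 CPM against 0.660 ± 0.673 CPM at day 5. The fitted log2 fold change between KO-labelled libraries and WT was -6.91 (SE 0.51) at day 0 and -5.79 (SE 0.59) at day 5. In pooled counts scaled by library size, the WT level was 124 times that of the KO-labelled libraries at day 0 (95% interval 73.3 to 227) and 54.4 times at day 5 (26.1 to 136). These exact binomial intervals cover counting error only. These values turned on few reads. Leaving out 1 library gave log2 fold changes of -7.56 (without Day_0_KO replicate 2) to -6.11 (without Day_0_KO replicate 1) at day 0 and of -7.51 (without Day_5_KO replicate 2) to -5.01 (without Day_5_KO replicate 1) at day 5.

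In WT at day 0, 83.9% of tested genes had a lower mean CPM than *Gdpd3*, and at day 5 64.5% did. In the KO-labelled libraries only 5.84% of tested genes were lower at day 0 and 2.56% at day 5. *Gdpd3* thus passed the filter on low counts through the WT libraries alone.

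**Figure D1:**
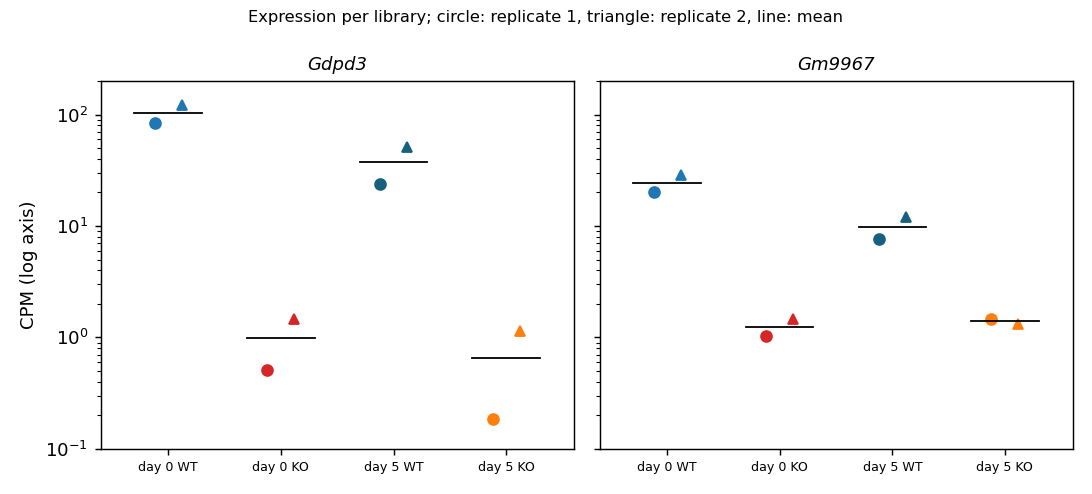
CPM of *Gdpd3* and *Gm9967* in each of the 8 libraries on a log axis, with circles for replicate 1, triangles for replicate 2 and a line at the group mean. All 4 WT libraries lay at 23.8 CPM or more for *Gdpd3* and at 7.58 CPM or more for *Gm9967*, and all 4 KO-labelled libraries lay at 1.47 CPM or less for either gene.

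Both cultured WT libraries lay below both day 0 WT libraries, at a log2 fold change of -1.47 (SE 0.34), which ran from -2.08 without Day_5_WT replicate 2 to -0.97 without Day_5_WT replicate 1. The WT levels of both days were among the values on which *Gdpd3* was selected, so this change is likewise not tested. No change in culture is given for *Gdpd3* in the KO-labelled libraries, where 6 and 8 counts stood against 1 and 6.

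*Gm9967*, whose gene body overlaps *Gdpd3* on the other strand, followed the same pattern. Its counts were 112 and 128 in WT at day 0, 12 and 8 in the KO-labelled libraries at day 0, 43 and 50 in WT at day 5, and 8 and 7 in the KO-labelled libraries at day 5. In CPM these were 20.03 and 28.9, 1.03 and 1.47, 7.58 and 12.1, and 1.47 and 1.33, so the genotypes did not overlap on either day. The fitted log2 fold changes between KO-labelled libraries and WT were -4.33 at day 0 (SE 0.38) and -2.78 at day 5 (SE 0.42). In pooled scaled counts the WT level was 20.5 times that of the KO-labelled libraries at day 0 (95% interval 13.0 to 34.2) and 6.77 times at day 5 (3.90 to 12.6). In WT culture its log2 fold change was -1.33 and in the KO-labelled libraries 0.23.

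For each 100 counts of *Gdpd3* there were 23.7 counts of *Gm9967* in both WT libraries at day 0, and 31.9 and 23.4 in the WT libraries at day 5. The KO-labelled libraries had 200 and 100 at day 0 and 800 and 117 at day 5, from 12 or fewer counts of either gene in each library. The strand setting of the counting was not given in the sources used here. Without strand, reads from the 2 genes cannot be told apart within their shared exons, so the values of *Gm9967* may not be independent of the reads on which *Gdpd3* was selected. *Gm9967* also passed the filter on low counts through the WT libraries, and its values are therefore given without a test.

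The 6 other members were compared between the genotypes to see whether the loss extended to the paralogues or the flanking genes. A gene is called where its FDR, the Benjamini-Hochberg adjusted p over all 12597 genes in the edgeR quasi-likelihood test, is under 0.05. None of the 6 was called on either day. The edgeR counts at an unadjusted p under 0.05, here and below, have no share over all genes beside them and are not read as results. At day 0 none of the 6 passed even at an unadjusted p under 0.05, and DESeq2 called none, beside 1.8% of all genes called. At day 5 *Coro1a* alone had an unadjusted p under 0.05, and DESeq2 called it, beside 1.63% of all genes called by edgeR and 350 genes called by DESeq2. In WT culture 3 of the 6 were called, *Gdpd5* and *Coro1a* lower and *Mapk3* higher, where 48.3% of all genes were called, 24.7% higher and 23.6% lower, and with DESeq2 only *Coro1a* was. In the KO-labelled libraries 1 was called in culture, *Mapk3* higher, where 50.2% of all genes were called, 26.2% higher and 24% lower. For the genotype by day interaction, the genotype difference at day 5 minus that at day 0, none of the 6 was called, by edgeR or DESeq2, 2 had an unadjusted p under 0.05, and 0.159% of all genes were called, 0.0794% in each direction.

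**Figure D2:**
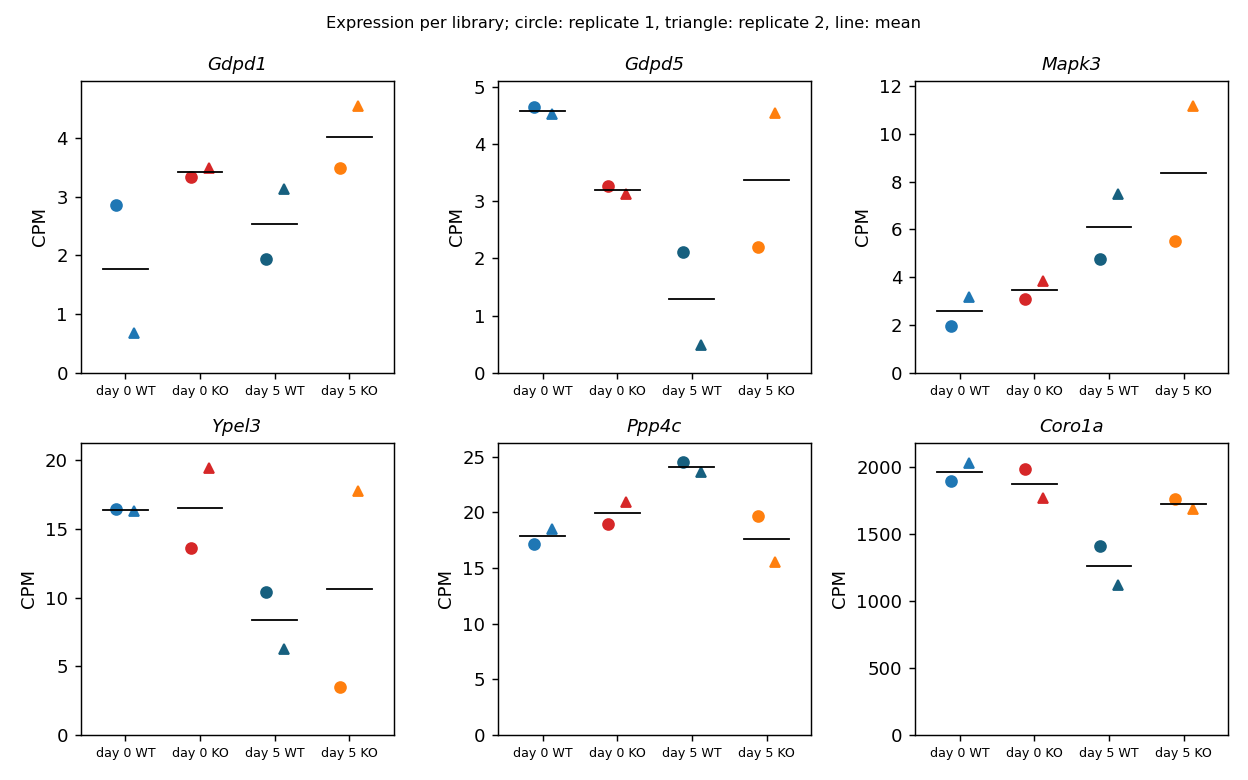
CPM of the 6 other members in each library on linear axes that start at 0, with circles for replicate 1, triangles for replicate 2 and a line at the group mean. None shows a genotype difference of the size seen for *Gdpd3*, and the *Ypel3* KO-labelled libraries at day 5 lie at 3.50 and 17.8 CPM.

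Of the paralogues, *Gdpd1*, the closest in activity to *Gdpd3*, was present at few reads. Its counts were 16 and 3 in WT and 39 and 19 in the KO-labelled libraries at day 0, and 11 and 13 in WT and 19 and 24 in the KO-labelled libraries at day 5. Both KO-labelled libraries lay above both WT libraries on each day in CPM, at 3.35 and 3.49 against 2.86 and 0.678 at day 0 and at 3.50 and 4.54 against 1.94 and 3.13 at day 5. The log2 fold change was 0.88 at day 0 (95% interval -0.35 to 2.103, FDR 0.558 in edgeR) and 0.69 at day 5 (-0.52 to 1.89, FDR 0.650 in edgeR), so a moderate rise or no change could not be distinguished at this depth. Leaving out 1 library moved the day 0 value between 0.25 (without Day_0_WT replicate 2) and 2.29 (without Day_0_WT replicate 1), and the day 5 value between 0.37 and 1.04 (without Day_5_WT replicate 1 or 2). Its culture values on the log2 scale were 0.43 in WT and 0.24 in the KO-labelled libraries, and neither was called. The WT value turned on single libraries, at -0.20 without Day_0_WT replicate 2 and 1.85 without Day_0_WT replicate 1, and was -0.05 with an offset per library for GC and length.

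*Gdpd5* had 26 and 20 counts in WT and 38 and 17 in the KO-labelled libraries at day 0, and 12 and 2 in WT and 12 and 24 in the KO-labelled libraries at day 5. In CPM these were 4.65 and 4.52 against 3.26 and 3.12, and then 2.12 and 0.482 against 2.21 and 4.54. The genotypes thus lay in one order at day 0 and in the opposite order at day 5, without overlap on either day. The log2 fold changes were -0.52 (95% interval -1.62 to 0.58, FDR 0.743 in edgeR) and 1.27 (-0.05 to 2.59, FDR 0.378 in edgeR), and the interaction of 1.79 was not called either (0.06 to 3.51, FDR 0.383 in edgeR). The day 5 value was 2.76 without Day_5_WT replicate 1 and 0.67 without Day_5_KO replicate 2. In WT culture *Gdpd5* fell by 1.71 on the log2 scale (SE 0.59, FDR 0.0308 in edgeR). That call was lost with DESeq2 (FDR 0.0623), with the GC and length offset (FDR 0.0533) and without any of Day_0_WT replicate 1, Day_0_WT replicate 2 and Day_5_WT replicate 2, and the log2 fold change ran from -3.17 without Day_5_WT replicate 1 to -1.08 without Day_5_WT replicate 2. The same libraries gave 3.28 and 1.15 for the interaction. The culture value in the KO-labelled libraries was 0.07, and -0.52 to 0.52 with 1 library left out.

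The glycerophosphodiester phosphodiesterase family was compared per length, as CPM per kb of exon. In WT at day 0 *Gdpd3* stood highest at 47.2, followed by *Gpcpd1*, which cleaves glycerophosphocholine, at 5.71, *Gde1*, an enzyme of N-acylethanolamine formation, at 1.78, *Gdpd1* at 0.758 and *Gdpd5* at 0.681. In the KO-labelled libraries at day 0 *Gdpd3* was the lowest of these 5 at 0.454, below *Gdpd5* at 0.473, and *Gpcpd1* led at 7.25. After culture *Gdpd3* still led in WT at 17.2, followed by *Gde1* at 7.70 and *Gpcpd1* at 2.44. In the KO-labelled libraries at day 5 *Gde1* led at 8.49 and *Gdpd3* had 0.302, the lowest. Some neighbours in these orders had library values that overlapped, namely *Gdpd1* and *Gdpd5* in WT at day 0, *Gde1* and *Gdpd1* in the KO-labelled libraries at day 0, and *Gdpd3* and *Gdpd5* in the KO-labelled libraries on both days.

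Of the 4 tested family members apart from *Gdpd3*, none was called between genotypes on either day, beside 1.8% of all genes at day 0 and 1.63% at day 5, none had an unadjusted p under 0.05 and DESeq2 called none. In WT culture 3 of the 4 were called, beside 48.3% of all genes, and 2 with DESeq2. *Gde1* rose in culture from 2.86 and 3.17 CPM to 15.7 and 10.4 CPM in WT, a log2 fold change of 2.12 (SE 0.35, FDR 0.000289 in edgeR). The KO-labelled libraries went from 3.43 and 2.39 CPM to 14.7 and 14.0 CPM, a log2 fold change of 2.25. *Gpcpd1* fell from 43.8 and 39.3 CPM to 20.1 and 15.4 CPM in WT, a log2 fold change of -1.22 (SE 0.19, FDR 0.000216 in edgeR), and by 1.71 on the log2 scale in the KO-labelled libraries. The 2 further members were not tested. *Gdpd2* had 8 and 4 counts in the KO-labelled libraries at day 0 and 0 in the other 6 libraries, and *Gdpd4* had 1 count in all.

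**Figure D3:**
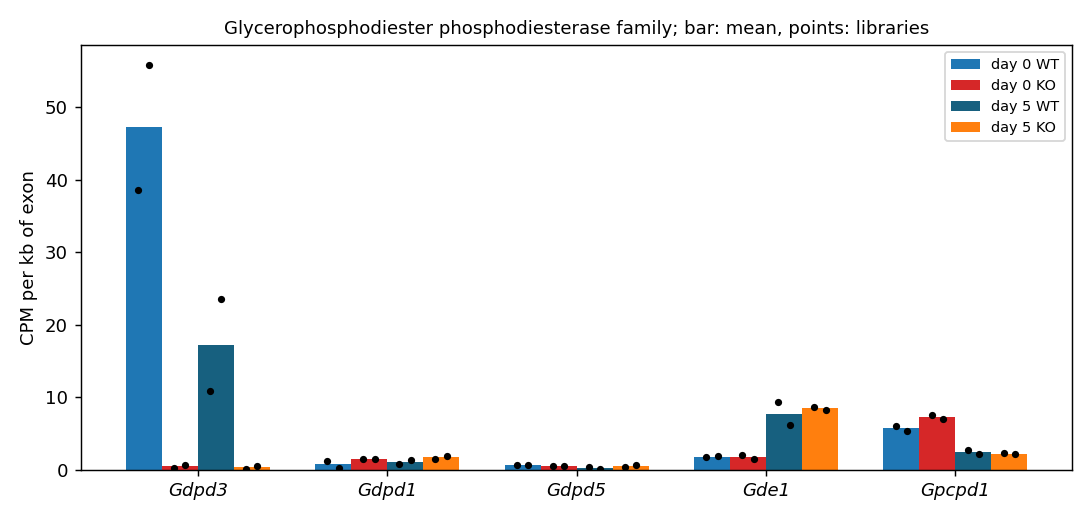
Mean CPM per kb of exon (bars) and each library (points) for the 5 tested glycerophosphodiester phosphodiesterase genes in the 4 groups. *Gdpd3* is the tallest bar in both WT groups, at 47.2 and 17.2, and among the lowest in both groups labelled KO, at 0.454 and 0.302.

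Among the flanking genes, *Mapk3*, the nearest gene upstream, had 1.97 and 3.17 CPM in WT and 3.09 and 3.85 CPM in the KO-labelled libraries at day 0, and 4.76 and 7.47 CPM against 5.52 and 11.2 CPM at day 5. The genotypes overlapped on both days. Their difference was 0.43 on the log2 scale at day 0 (95% interval -0.63 to 1.49, FDR 0.781 in edgeR) and 0.46 at day 5 (-0.45 to 1.38, FDR 0.693 in edgeR). Without Day_5_KO replicate 2 the day 5 value was -0.13, and without Day_5_KO replicate 1 it was 0.88. The intervals of the fit to all libraries exclude a loss of the size of *Gdpd3*. The days did not overlap in either genotype, and *Mapk3* rose in culture by 1.25 on the log2 scale in WT (SE 0.48, FDR 0.0485 in edgeR) and by 1.28 in the KO-labelled libraries (FDR 0.0246). The WT call was lost with library totals in place of the scaling factors (FDR 0.0795), with DESeq2 (FDR 0.0746), with the GC and length offset (FDR 0.0641), at a filter of 5 CPM (FDR 0.0509) and without any of Day_0_WT replicate 1, Day_0_WT replicate 2 and Day_5_WT replicate 2. The call in the KO-labelled libraries was lost with library totals (FDR 0.0513), with the offset (FDR 0.097), without Day_0_KO replicate 1 (FDR 0.117) and without Day_5_KO replicate 2, where the log2 fold change was 0.70.

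*Ypel3*, the nearest gene downstream, had 16.5 and 16.3 CPM in WT and 13.6 and 19.5 CPM in the KO-labelled libraries at day 0. At day 5 it had 10.4 and 6.27 CPM in WT, and the KO-labelled libraries stood apart from each other at 3.50 and 17.8 CPM (19 and 94 counts). The WT values lay inside the range of the KO-labelled libraries on both days. The log2 fold change was -0.0032 at day 0 (95% interval -1.04 to 1.03, FDR of 0.91 or more in edgeR or DESeq2 under each alternative run) and 0.32 at day 5 (-0.83 to 1.48). Without Day_5_KO replicate 2 the day 5 value was -1.27 and without replicate 1 it was 1.07, and neither was called. In WT culture *Ypel3* had a log2 fold change of -0.95 (FDR 0.152 in edgeR), which was called with no filter on low counts (FDR 0.0158), in a fit of the 4 WT libraries alone (FDR 0.0275) and without either of the KO day 5 libraries. The value in the KO-labelled libraries was -0.62, and it turned on the day 5 library kept, at -2.21 without Day_5_KO replicate 2 (FDR 0.00195 in edgeR) and 0.13 without replicate 1 (FDR 0.793 in edgeR).

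*Ppp4c* had 17.2 and 18.5 CPM in WT and 19.0 and 20.9 CPM in the KO-labelled libraries at day 0, and 24.5 and 23.6 CPM against 19.7 and 15.5 CPM at day 5. The KO-labelled libraries were higher at day 0 and lower at day 5, without overlap, at log2 fold changes of 0.16 (95% interval -0.29 to 0.60) and -0.45 (-0.90 to 0.0006, FDR 0.355 in edgeR). Neither was called, nor was the interaction of -0.61. *Ppp4c* was not called in culture, at 0.43 in WT and -0.17 in the KO-labelled libraries.

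*Coro1a* was the most abundant member. It had 1894 and 2027 CPM in WT and 1984 and 1764 CPM in the KO-labelled libraries at day 0, and 1410 and 1116 CPM against 1761 and 1682 CPM at day 5. The genotypes overlapped at day 0 and did not at day 5. The day 0 difference was -0.07 on the log2 scale (95% interval -0.34 to 0.21). The day 5 difference of 0.45 (0.17 to 0.72) had an FDR of 0.111 in edgeR and was called with DESeq2 (FDR 0.0375), with no filter on low counts (FDR 0.0174) and without Day_5_WT replicate 1 (FDR 0.0214). In WT culture *Coro1a* fell by 0.63 on the log2 scale (SE 0.13, FDR 0.00119 in edgeR). In the KO-labelled libraries its value was -0.12 (FDR 0.436 in edgeR), called with library totals at -0.30 (FDR 0.0265) and with the GC and length offset at -0.48 (FDR 0.00875). The interaction of 0.51 was not called (FDR 0.275 in edgeR). *Coro1a* shares 26 bases of exon, 0.934% of its exon length, with *Bola2* on the other strand.

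The wider chromosome was then examined for how far from *Gdpd3* genotype differences reached. Within 500 kb of either end the annotation lists 85 other genes, of which 83 were in the count tables and 46 were tested. With *Gm9967* left out for the limits given above, 45 remained. At day 0, 3 of the 45 were called (6.67%), 1 higher and 2 lower, where 1.8% of all genes were called, 0.913% higher and 0.889% lower. These were *Cdipt*, *Lat* and *Cln3*. *Cdipt*, the phosphatidylinositol synthase gene 200.3 kb downstream, had 150.8 and 157.4 CPM in WT and 78.4 and 61.8 CPM in the KO-labelled libraries, a log2 fold change of -1.13 (SE 0.18, FDR 0.0076 in edgeR). Its body overlaps that of *Cdiptos* on the other strand. *Lat*, which encodes the adaptor that links the T-cell receptor to downstream signalling and lies 396.8 kb upstream, had 1549 and 1773 CPM against 1177 and 1113 CPM (log2 fold change -0.54, SE 0.11, FDR 0.0269 in edgeR). *Cln3*, a lysosomal membrane protein gene 180.5 kb upstream, had 44.2 and 40.0 CPM against 65.3 and 77.8 CPM (log2 fold change 0.76, SE 0.17, FDR 0.039 in edgeR).

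All 3 of these calls hung on single libraries, while the log2 fold changes kept their sign. With 1 library left out they ran from -1.32 to -0.94 for *Cdipt*, from 0.66 to 0.88 for *Cln3* and from -0.63 to -0.44 for *Lat*. *Cdipt* and *Cln3* were lost without either WT library of day 0 or without Day_0_KO replicate 2, *Cln3* also without either KO library of day 5, and *Lat* without any one of the 4 day 0 libraries or Day_5_KO replicate 1. *Lat* was further lost with the GC and length offset (log2 fold change -0.42, FDR 0.0801 in edgeR), and *Cln3* in a fit of the 4 day 0 libraries alone (FDR 0.0523) and with the replicate block (FDR 0.0501). At day 5 edgeR called 0 of the 45, beside 1.63% of all genes, 1.31% higher and 0.318% lower. There were 11 at an unadjusted p under 0.05, and DESeq2 called 3, *Aldoa*, *Cln3* and *Coro1a*. The median log2 fold change of the 45 was -0.07 at day 0, with 15 of the 45 positive, against a median of -0.0017 over all genes tested. At day 5 it was 0.32, with 34 of the 45 positive, against 0 over all genes tested.

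Within 100 kb of *Gdpd3*, 14 genes apart from *Gm9967* were tested. By edgeR 0 were called on either day, beside 1.8% of all genes at day 0 and 1.63% at day 5. DESeq2 called 0 at day 0 and 2 at day 5, *Aldoa* and *Coro1a*, beside 299 and 350 over all genes. At an unadjusted p under 0.05 there were 5 at day 5. At day 0 there was only *Tbx6*, a T-box factor gene. It had 3 and 7 counts in WT and 37 and 20 in the KO-labelled libraries. *Tbx6* passed the filter through those KO-labelled libraries alone, so it is given without a test and no result rests on that count. For the interaction none of the 45 was called by edgeR, beside 0.159% of all genes, and 12 had an unadjusted p under 0.05. DESeq2 called 1 of the 45, *Lat* at 0.58 (FDR 0.0402), and 144 over all genes.

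**Figure D4:**
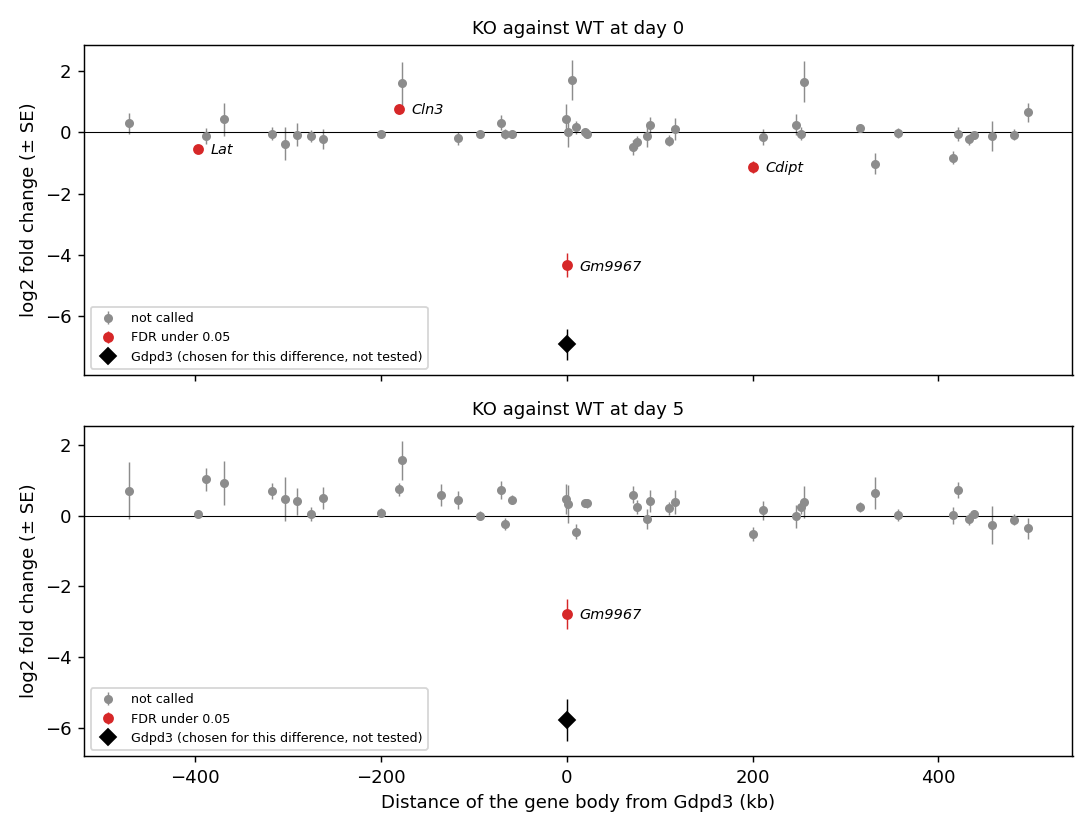
Log2 fold change (± SE) between KO-labelled libraries and WT of each tested gene within 500 kb of *Gdpd3*, by distance in kb, at day 0 and day 5. Red points passed an FDR of 0.05, grey points did not, and the black diamond is *Gdpd3*. *Gm9967* is drawn in red on both days, but its values are given without a test for the limits stated above. The 1 gene a day with no library above 3 counts (*Nupr1* at day 0, *Tbx6* at day 5) is left out. *Gdpd3* and *Gm9967* stand below the rest on both days.

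The share of these genes called in culture lay near that of all genes, so the counts are not read as particular to this neighbourhood. In WT 25 of the 45 were called (11 higher, 14 lower, 55.6% beside 48.3% of all genes) and in the KO-labelled libraries 21 were (12 higher, 9 lower, 46.7% beside 50.2%). In each of these comparisons 3 of the called genes had a day on which neither library reached the level of the filter (1.82 CPM), *Nupr1* and *Sbk1* in both, *Gm31749* in WT and *Tbx6* in the KO-labelled libraries. These shares were 12% and 14.3% of the called genes, beside 16.5% and 17.4% over all genes called. *Kif22*, a chromosome-arm kinesin of dividing cells, went from 46.2 and 27.6 CPM to 647 and 552 CPM in WT, a log2 fold change of 4.01 (FDR 1.13e-08 in edgeR). *Aldoa*, the glycolytic aldolase gene, went from 444 and 468 CPM to 5498 and 5781 CPM, a log2 fold change of 3.63 (FDR 1.19e-10 in edgeR). *Nupr1*, a stress-induced nuclear protein gene, had 1 and 1 counts at day 0 and 63 and 37 at day 5 in WT, a scaled ratio of 51.0 with a 95% counting interval of 13.8 to 427. Among the decreases in WT, *Sbk1*, a kinase gene, had 75 and 28 counts at day 0 and 3 and 2 at day 5, so day 0 was 20.2 times day 5 (8.38 to 63.5). The ratios of *Nupr1* and *Sbk1* are therefore given without a test. *Spns1*, a lysosomal lysophospholipid transporter gene, fell by 2.57 on the log2 scale (FDR 1.9e-05 in edgeR) and *Qprt*, an enzyme gene of NAD synthesis, by 2.53 (FDR 0.000245 in edgeR).

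The genes that make, break or sense the lipids released by GDPD3 were read from lists set by pathway. Of 18 tested genes of lysophosphatidic acid synthesis and breakdown besides *Gdpd3*, none was called between genotypes on either day by edgeR or DESeq2, beside 1.8% of all genes called at day 0 and 1.63% at day 5. There were 2 at an unadjusted p under 0.05 at day 0 and 4 at day 5. In WT culture 6 of the 18 were called, 4 higher and 2 lower (33.3%, beside 48.3% of all genes), and DESeq2 called 3. Of the 6, *Plpp2* and *Pla2g4a* had a day on which neither library reached the level of the filter on low counts, as did 16.5% of all genes called, and their ratios are given without a test. *Lpgat1* and *Agpat5*, both acyltransferase genes, rose by 1.16 and 0.99 on the log2 scale, the first lost without Day_0_WT replicate 1 (FDR 0.0569 in edgeR). *Plpp2*, a lipid phosphate phosphatase gene, had 1 and 0 counts at day 0 and 16 and 10 at day 5, a scaled ratio of 26.5 (95% counting interval 4.36 to 1087). *Pla2g4a*, the cytosolic phospholipase A2 gene, had 14 and 9 counts at day 0 and 2 and 1 at day 5, so day 0 was 7.52 times day 5 (2.27 to 39.1). *Lypla2*, a lysophospholipase gene, had a log2 fold change of -1.54 (FDR 0.038 in edgeR), which ran from -2.43 without Day_5_WT replicate 1 to -1.03 without Day_5_WT replicate 2. Its call was lost without the latter, without either WT library of day 0 and with DESeq2 (FDR 0.057).

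Of the receptors for lysophosphatidic acid, 3 of 8 were tested, and 1 of the 3 was called between genotypes at day 0 and none at day 5, beside 1.8% and 1.63% of all genes. *P2ry10*, a receptor for lysophospholipids on lymphocytes, had 76.2 and 78.9 CPM in WT and 235 and 205 CPM in the KO-labelled libraries at day 0. At day 5 the values were 114 and 90.4 CPM against 114 and 97.5 CPM. *P2ry10* was thus higher in the KO-labelled libraries at day 0, by 1.51 on the log2 scale (SE 0.15, FDR 0.000233 in edgeR), and overlapped at day 5, at 0.05. The difference between the days passed the test, at -1.46 (SE 0.21, FDR 0.0193 in edgeR). That call was lost with the GC and length offset (-1.16, FDR 0.0964 in edgeR) and without either WT library of day 0 or either KO library of day 5. With 1 library left out the value ran from -1.64 to -1.28. In the KO-labelled libraries *P2ry10* fell in culture by 1.06 on the log2 scale. In WT its value was 0.40 (FDR 0.0488 in edgeR), a call lost in 9 of the 16 alternatives, with FDR up to 0.468. *Lpar6*, another receptor, was not called between genotypes and fell in WT culture by 1.22 on the log2 scale.

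Of 8 tested genes of the N-acylethanolamine pathway besides *Gdpd3*, none was called between genotypes on either day by edgeR or DESeq2, beside 1.8% of all genes called at day 0 and 1.63% at day 5. There were 3 at an unadjusted p under 0.05 at day 0 and 0 at day 5. In WT culture 3 were higher and 2 lower (62.5% called, beside 48.3% of all genes, 24.7% higher and 23.6% lower), and DESeq2 also called 5. *Cnr2*, the cannabinoid receptor of immune cells, went from 46.5 and 52.7 CPM to 3.70 and 6.51 CPM, a log2 fold change of -3.31. *Faah*, which hydrolyses N-acylethanolamines, fell by 0.88 on the log2 scale, a call lost without Day_0_WT replicate 2 (FDR 0.0773 in edgeR) or Day_5_WT replicate 1, where it was -0.47. *Abhd4*, which acts before the GDPD step, rose by 2.60 (1.96 without Day_5_WT replicate 2) and *Ptpn22*, a phosphatase placed in a parallel branch, by 0.79.

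The partners of the neighbours were read in the same way. Among 10 tested genes of the ERK pathway, 1 was called between genotypes at day 0, beside 1.8% of all genes. This was *Dusp6*, the ERK phosphatase, at 42.0 and 38.7 CPM in WT and 25.6 and 23.5 CPM in the KO-labelled libraries, a log2 fold change of -0.71 (SE 0.15, FDR 0.034 in edgeR). The call was lost without any one library of day 0 or KO library of day 5, at FDR up to 0.267. It was also lost with library totals (FDR 0.0517), with no filter (FDR 0.0505), with the offset (FDR 0.0516) and in a fit of the 4 day 0 libraries alone (FDR 0.102), so that 10 of the 16 alternatives ended it. None was called at day 5 by edgeR or DESeq2, beside 1.63% of all genes, with 2 at an unadjusted p under 0.05. *Dusp6* was 1 of these, at 0.39 (FDR 0.206 in edgeR), opposite in sign to day 0, and its interaction of 1.10 had an FDR of 0.0565 in edgeR and of 0.00285 with DESeq2. In WT culture 5 of the 10 were called, beside 48.3% of all genes, and 4 with DESeq2. *Dusp6* and *Map2k1* rose by 1.48 and 1.47 on the log2 scale, and *Pea15a* and *Araf* fell by 1.14 and 0.61.

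Of 6 tested coronin genes, 1 was called on each day (16.7%), beside 1.8% of all genes at day 0 and 1.63% at day 5. *Coro2a* was called at day 0, at 9.84 and 10.4 CPM in WT and 20.1 and 23.9 CPM in the KO-labelled libraries, a log2 fold change of 1.11 (SE 0.20, FDR 0.0171 in edgeR), lost without either WT library of day 0 or Day_0_KO replicate 2 and in a fit of the 4 day 0 libraries alone (FDR 0.0526). *Coro7* was called at day 5, at 21.2 and 26.5 CPM in WT and 54.8 and 80.5 CPM in the KO-labelled libraries, a log2 fold change of 1.51 (SE 0.24, FDR 0.0078 in edgeR), lost without Day_5_WT replicate 1 or Day_5_KO replicate 2. In WT culture 3 of the 6 were called, 1 higher and 2 lower, beside 48.3% of all genes. In the KO-labelled libraries 4 were called, all higher, beside 50.2%, and DESeq2 called 3, *Coro1b*, *Coro1c* and *Coro2a*. The fourth, *Coro2b*, had 14 and 3 counts at day 0 and 17 and 16 at day 5. Neither of its day 0 libraries reached the level of the filter, as on 1 day for 17.4% of all genes called, so it is given without a test. In WT *Coro2a* rose by 2.20 and *Coro7* fell by 1.29. For the interaction edgeR called none of the 6, at -1.29 for *Coro2a* and 1.32 for *Coro7*, and 5 had an unadjusted p under 0.05. DESeq2 called these 2 genes (FDR 0.0265 and 0.0165), beside 144 over all genes. Neither the 6 tested genes of the protein phosphatase 4 complex nor the 4 tested Yippee-like genes had a genotype call on either day by edgeR or DESeq2, beside 1.8% and 1.63% of all genes, with 1 gene of each list at an unadjusted p under 0.05 at day 0 and 0 at day 5. In WT culture 2 of the 6 phosphatase 4 genes were called, beside 48.3% of all genes. *Igbp1*, a phosphatase-binding protein gene, rose by 0.55 and *Smek2*, a regulatory subunit gene, fell by 0.99, the first lost without Day_0_WT replicate 2 (FDR 0.0981 in edgeR). None of the 4 Yippee-like genes was called in WT culture by edgeR or DESeq2, with 1 at an unadjusted p under 0.05. Of the 4, 1 was called in culture of the KO-labelled libraries, *Ypel5*, lower by 0.59 on the log2 scale (SE 0.13, FDR 0.00222 in edgeR), beside 50.2% of all genes.

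Genes were last ranked by how closely their log2 CPM over the 8 libraries followed that of *Gdpd3*. The 5 closest of 12596 were *Gm9967* (Pearson r 0.981, Spearman rho 0.857), *Klrd1* (0.965, 0.833), *Gm16340* (0.960, 0.810), *Adrm1* (0.952, 0.929) and *Kcnj9* (0.952, 0.976). The median r over all genes was -0.01, and 16 genes reached 0.9. The libraries fall into clusters by genotype and day, so these values describe an ordering and carry no test. *Gm9967* alone of the 5 lies on chromosome 7. *Klrd1* (chromosome 6), which encodes the CD94 chain of an inhibitory receptor of NK and CD8+ T cells, had 144 and 158 CPM in WT and 47.7 and 46.1 CPM in the KO-labelled libraries at day 0, and 101.4 and 102.2 CPM against 52.6 and 55.7 CPM at day 5. *Adrm1* (chromosome 2), a proteasome ubiquitin receptor gene, had 27.6 and 24.0 CPM against 9.78 and 11.7 CPM, and then 14.5 and 21.9 CPM against 10.1 and 12.3 CPM. *Kcnj9* and *Gm16340* (both chromosome 1) had 31 counts or fewer in each library. The members next to *Gdpd3* followed it less, with r of -0.33 for *Mapk3*, 0.20 for *Ypel3*, 0.20 for *Ppp4c* and -0.23 for *Coro1a*, as did the paralogues *Gdpd1* (-0.67) and *Gdpd5* (-0.12).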

How the data were processed

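RNA of 8 libraries of splenic CD8+ T cells was measured by sequencing. The authors deposited 1 table of raw read counts by gene symbol per library, without normalization or pooling. Per the labels, libraries were made with an NEBNext Ultra RNA kit, and the submitters' processing notes name HISAT2 2.1.0, HTSeq 0.11.1 and the mm10 (GRCm38) build. Neither the annotation nor the strand setting used in counting was given in the sources used here. Summary lines of the counter were left out of totals. Reads in genes were 21.2 to 24.5% of records, and totals of 4170126 to 11117971 counts set the precision.

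Groups came from the sample labels. All 8 libraries entered 1 quasi-likelihood fit in edgeR 4.0.16 (R 4.3.3) with group means, TMM factors (trimmed mean of M-values) and the default filter (minimum count 10). It kept 12597 of the 34404 symbols with any count. P-values were two-sided and adjusted by Benjamini-Hochberg (FDR, threshold 0.05), and the common biological coefficient of variation was 15.0%. CPM used the scaled library sizes, and per kb values the GENCODE M21 exon length (46394 of 48321 symbols matched). Likeness used log2 CPM with a prior count of 2. The fit was tested on simulated data. Counts of the 2 libraries of a group differed beyond sampling noise in every group, so none was treated as a repeat deposit of another.

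The members, lists and tests were chosen with earlier results of these data known. Named were all members, listed or neighbouring genes called between genotypes or in the interaction, the 3 called genes with the largest and the 3 with the smallest change in WT culture per list, genes next to or overlapping a member, the 5 most correlated with *Gdpd3*, and *Satb1*. *Tbx6* was named after its values were seen. Alternatives were DESeq2 1.42.0, its size factors within edgeR, library totals, no filter, 5 CPM in 2 libraries, the 4 libraries of a comparison, a replicate block, a GC and exon length offset (available for 96.9% of tested genes), and leaving out each library.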

Additional observations from a re-analysis of the deposited data

Results flagged for a closer look

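The genotype difference of 2 named genes changed between the days by the test of the interaction itself. *P2ry10* differed by 1.51 on the log2 scale at day 0 and by 0.05 at day 5, an interaction of -1.46 (FDR 0.0193, edgeR quasi-likelihood test). *Satb1* differed by 0.51 at day 0 and by -0.84 at day 5, an interaction of -1.34 (FDR 0.0269, edgeR quasi-likelihood test). The day 0 difference of *Satb1* was not called under any of the 16 alternatives. Both interactions lost the call with the GC and length offset, at -1.16 for *P2ry10* (FDR 0.0964 in edgeR) and -1.15 for *Satb1* (FDR 0.0791 in edgeR). Both were also lost without any one of several single libraries. With 1 library left out the values ran from -1.64 to -1.28 for *P2ry10* and from -1.49 to -1.23 for *Satb1*.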

How the results depend on the processing

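The number of genes called between genotypes at day 0 was 227, and 434 with no filter on low counts. At day 5 it was 205, against 418 with no filter, 350 with DESeq2 and 121 with the GC and length offset. The interaction count was 20, against 154 with no filter, 144 with DESeq2 and 12 with the offset, and with library totals 8 were higher and 15 lower in place of 10 and 10. Among the 46 neighbours, *Gm9967* included, the day 5 count of 1, which was *Gm9967* itself and is not used as a result, became 4 with no filter, 2 at 5 CPM and 4 with DESeq2, and the interaction count of 0 became 1 with DESeq2. Leaving out each library gave 38 to 276 genes at day 0, 32 to 249 at day 5 and 0 to 41 for the interaction. The lowest counts came without Day_0_WT replicate 1 (38 at day 0, 0 for the interaction) and without Day_5_KO replicate 2 (32 at day 5). Among the neighbours the range was 1 to 4 at day 0, 0 to 2 at day 5 and 0 for the interaction. A lone library in a group was then assumed to vary like the others. The 2 culture counts stayed within 1.5 times under every alternative run. Library totals and the offset moved the median of all genes in WT culture from -0.04 to -0.172 and -0.181, and in KO culture from -0.05 to -0.225 and -0.2. With no filter the KO culture median was -0.405. In WT culture the split of calls went from 3112 higher and 2969 lower to 2670 and 3547 with library totals and 2616 and 3492 with the offset, and in KO culture from 3296 and 3029 to 2765 and 3912 with library totals and 2810 and 3763 with the offset. For single genes 1862 values were labelled unchanged over all alternatives, 94 lost a call and 37 gained one. These counts include values given above without a test. The genotype values of *Gdpd3* had no threshold and were labelled by whether the log2 fold change stayed within the spread between libraries. Of these 1 moved, at day 5 without Day_5_KO replicate 2. No called result reversed. The causes were not tested.

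The replicate numbers were not taken to pair the libraries. The correlation of same-numbered deviations was 0.118 between the days in WT and 0.228 in KO, 0.004 between the genotypes at day 0 and -0.017 at day 5. With the replicate block 216 genes were called at day 0, 215 at day 5, 5999 in WT culture, 6291 in KO culture and 29 for the interaction, and *Cln3* at day 0 had an FDR of 0.0501 in edgeR.

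Depth limits what can be said of *Gdpd1*, *Gdpd5* and *Mapk3*, which had at most 59 counts in any library, and of *Gdpd3* in the libraries labelled KO, which had at most 8.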
